A study of Homo sapiens with 6 samples.

Results

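SOX3 and 5 of its relatives (SOX2, SOX4, SOX9, SOX12 and SOX13) were followed in KGN cells, a human line from a granulosa cell tumour of the ovary. These 6 genes were the rows of the deposited expression table whose symbol was on a list of the overexpressed gene and its relatives, 6 of 16626 genes. The table held 10 other SOX genes, which are described beside them. RNA was sequenced from 3 libraries labelled OE-NC, whose genotype is given as WT, and from 3 labelled OE-SOX3, whose genotype is given as overexpression of SOX3. All 6 libraries came from KGN cells, and no other treatment is named. The sources used here do not name the vector or its promoter, nor say whether a group was a clone or a pool. They also do not say that libraries of a group were grown separately. The p-values therefore cover the spread among 6 libraries only, and that spread may be technical.

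SOX proteins bind DNA through a high mobility group (HMG) box, a domain that sits in the minor groove and bends the helix. Their sequences place them in lettered groups. SOX3 and SOX2 belong to the SOXB1 group of activators that maintain neural progenitors, SOX4 and SOX12 to SOXC, SOX5 and SOX13 to SOXD, and SOX9 to SOXE. In the gonad SOX9 drives the supporting cells towards the Sertoli fate, and in XX mice ectopic Sox3 in the fetal gonad switches on Sox9 and gives a testis. In the ovary the granulosa cell is the counterpart of the Sertoli cell, which is the background to looking at SOX genes together in this line.

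The stretch that the members share is shown first, because it is the part by which they are relatives and the part where their reads could be confused. It is the 120-base window of the SOX3 transcript in which the least similar of the other members was most alike, and it lies in the part that encodes the HMG box. Capitals mark the bases that differ from SOX3.
SOX3: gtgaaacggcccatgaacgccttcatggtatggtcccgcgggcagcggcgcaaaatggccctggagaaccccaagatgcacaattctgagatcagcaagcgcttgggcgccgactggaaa
SOX2: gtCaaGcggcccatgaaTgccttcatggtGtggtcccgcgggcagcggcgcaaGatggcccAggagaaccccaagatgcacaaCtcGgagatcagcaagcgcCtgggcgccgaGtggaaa
SOX4: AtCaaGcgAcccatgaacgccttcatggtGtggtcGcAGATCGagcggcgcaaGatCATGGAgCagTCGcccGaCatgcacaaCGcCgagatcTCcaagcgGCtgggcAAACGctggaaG
SOX12: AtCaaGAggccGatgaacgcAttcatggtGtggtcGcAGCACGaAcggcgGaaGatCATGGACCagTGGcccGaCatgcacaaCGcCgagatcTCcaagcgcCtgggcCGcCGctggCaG
SOX9: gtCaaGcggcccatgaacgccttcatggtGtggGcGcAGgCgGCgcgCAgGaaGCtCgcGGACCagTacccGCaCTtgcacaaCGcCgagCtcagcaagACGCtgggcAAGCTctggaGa
SOX13: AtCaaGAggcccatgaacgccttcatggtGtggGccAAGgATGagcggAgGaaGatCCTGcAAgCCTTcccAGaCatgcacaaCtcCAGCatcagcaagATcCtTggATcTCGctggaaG

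In SOX3 this stretch lies at chrX:140504527-140504646 (GRCh38, minus strand). The SOX2 stretch differed from it at 10 bases (91.7% identity) and lies at chr3:181712481-181712600 (plus strand). SOX4 (chr6:21594709-21594828, plus strand) was 68.3% identical and SOX12 (chr20:326042-326161, plus strand) 65%. The SOX9 stretch (66.7% identity) and the SOX13 stretch (64.2%) are each joined across an intron, from chr17:72121704-72122719 and chr1:204123699-204124654, both on the plus strand. The longest run of identical bases that SOX3 shared with the whole transcript of a relative was 23 bases, for both SOX2 and SOX9, and no window of 30 bases was shared with any of the 5. The read length is not named in these sources. The exons of SOX3, SOX2, SOX12, SOX13 and SOX9 overlapped no other annotated gene, and 2.87% of the SOX4 exon bases lay in exons of a neighbour (GENCODE 29).

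Values are FPKM, reads per kilobase of gene and per 1000000 reads of the library. The library totals, fitted from the values and not named in the sources, were 18039929 to 20335307 reads. They are close to the reads summed over the genes (18950683 of 19028709 in OE-NC library 1). The 11131 genes whose mean reached 1 FPKM in either group were tested by limma on log2(FPKM + 1), and "rose" and "fell" are used for an adjusted p under 0.05. In that test 69.1% of all tested genes passed, 32.9% higher and 36.1% lower in OE-SOX3, and the median log2 fold change was -0.03. Scaling all libraries to the same sum of FPKM moved that median to 0.10. Against so wide a change, a call for any 1 gene is common, and the size of the change says more than the call. Of the 6 members 5 passed the filter on low values, and 4 of these rose and 1 fell. In all 5 the libraries of the groups did not overlap, as in 76% of all tested genes. SOX3 and SOX4 passed the filter through OE-SOX3 alone, so they had to be higher, and these counts are a description. The same holds below for every gene under 1 FPKM in one group, and each list's median is therefore also given for its genes at 1 FPKM or more in both groups (-0.05 over the 10313 such genes). SOX9 stayed under the filter. Among the controls, replicate 1 was set apart from its mates (Pearson correlation across genes 0.986 with each, against 0.998 between those), and the gap to them was related to gene length (Spearman correlation over genes -0.508). For 5 of the 6 members it is the highest or the lowest control. Without it the log2 fold changes of the tested members were 3.81 (SOX3), -1.85 (SOX2), 1.64 (SOX4), 0.74 (SOX12) and 0.57 (SOX13), all still past the threshold.

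SOX3 went from a trace to the most abundant SOX transcript. OE-NC libraries 1, 2 and 3 held 0.0756, 0.142 and 0.0254 FPKM, and OE-SOX3 libraries 14.3, 13.7 and 14.4 FPKM. The groups lie far apart, and the 3 OE-SOX3 libraries differ by little (coefficient of variation 2.65%). The control values rest on 10 reads in all, against 1666 in the overexpressing libraries. Divided by depth, the ratio of reads was 172 (95% exact binomial interval 93.1 to 358, which covers counting error alone). On the log2(FPKM + 1) scale the difference was 3.81 (SE 0.06, limma adjusted p = 1.97e-07), rank 5 from the highest of 11131 genes. SOX3 is the overexpressed gene and met the filter through OE-SOX3 alone, so its direction was set by the design. The pseudocount of 1 compresses a gene this low in the controls. With a pseudocount of 0.1 the value was 6.35, with every library scaled to the same sum of FPKM 5.17, and in limma-voom on recovered reads 7.45. SOX3 is 1 exon on the X chromosome (140502985 to 140505116, minus strand, GRCh38, GENCODE 29), and the deposited values divide its reads by 2085 bases, of which 1338 are coding without the stop codon. Whether the overexpressed transcript carries the untranslated ends is not stated, so the level per kilobase of that transcript is not known.

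SOX2, the nearest relative of SOX3 and a factor of pluripotent cells and neural progenitors, moved the other way. It was the most abundant SOX transcript of the controls, at 8.45, 7.36 and 6.75 FPKM, and stood at 1.3, 1.23 and 1.17 FPKM in OE-SOX3. Every OE-SOX3 library lay below every control. The OE-NC mean was 7.52 ± 0.861 FPKM and the OE-SOX3 mean 1.23 ± 0.0632 FPKM (SD, n = 3 libraries each), 6.11-fold lower. In reads this was 1100 against 175, which divided by depth is a ratio of 0.164 (95% interval 0.139 to 0.192). On the log2 scale it fell by 1.93 (SE 0.08, limma adjusted p = 3.38e-06), and 98.7% of tested genes had a smaller change in either direction. Without OE-NC replicate 1, the highest control, the value was -1.85. In bulk RNA fewer cells with SOX2 and less SOX2 RNA per cell cannot be told apart. SOX2 is also a single exon (chromosome 3, 181711924 to 181714436, plus strand).

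**Figure D1:**
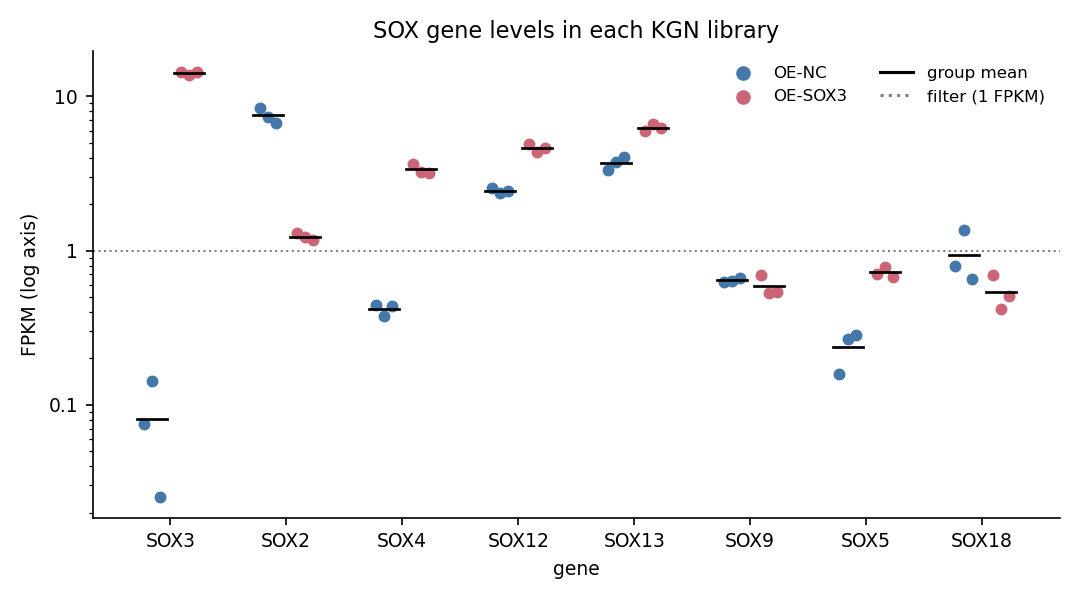
FPKM (log axis) of the 6 members, SOX5 and SOX18 in each library, with OE-NC in blue, OE-SOX3 in red, black bars for group means and a dotted line at the 1 FPKM filter. SOX3 and SOX2 cross over, SOX4, SOX12, SOX13 and SOX5 are higher in every OE-SOX3 library, and SOX9 and SOX18 overlap between the groups.

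Within SOXB1 the leading gene changed, and the sum of the pair was higher. SOX2 and SOX3 together came to 8.53, 7.5 and 6.78 FPKM in the controls and to 15.6, 14.9 and 15.5 FPKM in OE-SOX3, 2.02 times the control mean. SOX2 made up 46.6% of all SOX FPKM in OE-NC and 3.9% in OE-SOX3, while SOX3 went from 0.501% to 44.8%. Because FPKM is per length, these shares compare levels between genes where the length used is that of the transcript. For the overexpressed SOX3 that length is not known. The shares in OE-SOX3 and the sums that hold SOX3 therefore depend on the 2085 bases used. For this sum the exact permutation test over libraries gave p = 0.1 (two-sided), the smallest value that 3 against 3 libraries allow. The sum holds the overexpressed gene itself, so its rise was set by the design and the p-value is a description only. SOX2 alone fell.

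The SOX2 promoter window is printed because SOX2 had the largest fall among the members, and because, of the 5 member windows searched, it was the one that held a searched SOX form. The SOX9 window was not analysed here. The window runs from 250 bases before to 50 bases after the RefSeq gene start (chr3:181711675-181711974, GRCh38.p14, plus strand), and the capitals mark ACAAAG.
SOX2 promoter: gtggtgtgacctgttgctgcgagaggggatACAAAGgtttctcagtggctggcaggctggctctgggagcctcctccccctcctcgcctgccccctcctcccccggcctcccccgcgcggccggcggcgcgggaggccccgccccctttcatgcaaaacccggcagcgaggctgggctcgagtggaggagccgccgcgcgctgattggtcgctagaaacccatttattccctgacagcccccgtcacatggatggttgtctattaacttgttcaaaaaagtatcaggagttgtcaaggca

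Short forms of the SOX recognition sequence were searched on both strands. The form ACAAAG is present in 16.1% of all 35097 promoter windows of the same length. The form ACAATG is present in 10.8% of them. The form AACAAT, which can overlap the previous one, is present in 10.1%, and 29.1% hold at least 1 form. None was found in the windows of SOX3, SOX4, SOX12 and SOX13, nor in that of SPP1, which encodes osteopontin and is named in the series title as a target. Binding was not measured in this study's files, and a match or its lack in a 300-base window is a description of letters only.

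Both SOXC genes rose. SOX4, an activator of neuronal and mesenchymal genes that is widely expressed in progenitors and tumours, was at 0.443, 0.374 and 0.435 FPKM in the controls. In OE-SOX3 it was at 3.66, 3.24 and 3.2 FPKM. The groups were far apart, 0.417 ± 0.0379 against 3.37 ± 0.256 FPKM (SD, n = 3 libraries each), an 8.07-fold difference between the means that rests on 118 and 928 reads. On the log2(FPKM + 1) scale the change was 1.62 (SE 0.06, limma adjusted p = 2.53e-06), and 97.6% of tested genes changed less. In limma-voom on recovered reads, which adds no pseudocount of 1, it was 3.00. SOX4 met the filter through OE-SOX3 alone, so its direction was fixed, and its p-value and rank are a description. Its gene is a single exon on chromosome 6 (21592768 to 21598619, plus strand).

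SOX12 carries a weaker activation domain than SOX4 in transfection assays and is broadly expressed. Its values were 2.53, 2.35 and 2.42 FPKM in OE-NC and 4.93, 4.36 and 4.65 FPKM in OE-SOX3, again without overlap. The means were 2.43 ± 0.0927 and 4.65 ± 0.286 FPKM (SD, n = 3 libraries each), 1.91-fold higher in OE-SOX3 (log2 fold change 0.72, SE 0.06, limma adjusted p = 6.32e-05). On that scale 74.5% of tested genes changed less, so this change was not among the largest. SOX11, the other SOXC gene, had no read in any library, and a count of 0 allows up to 0.148 to 0.166 reads per 1000000 (3 reads of a library, counting error only). The SOXC sum was 2.85 ± 0.126 FPKM in OE-NC and 8.01 ± 0.516 FPKM in OE-SOX3 (SD, n = 3 libraries each; exact permutation p = 0.1, the smallest possible), and SOX4 supplied the larger part of the difference. SOX12 is a single exon on chromosome 20 (325595 to 330224, plus strand).

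SOXD proteins dimerise through a coiled coil and have no activation domain of their own. SOX13, a member of that group first described as an autoantigen, was at 3.32, 3.73 and 4.06 FPKM in OE-NC and at 5.98, 6.58 and 6.2 FPKM in OE-SOX3. It rose from 3.71 ± 0.371 to 6.25 ± 0.304 FPKM (SD, n = 3 libraries each), 1.69-fold (log2 fold change 0.63, SE 0.08, limma adjusted p = 0.000323). SOX13 lies on chromosome 1 (204073115 to 204127743, plus strand). Its relative SOX5 was lower in level and was under the filter. SOX5 stood at 0.158, 0.268 and 0.283 FPKM in OE-NC and at 0.7, 0.788 and 0.677 FPKM in OE-SOX3, where every library was above every control. Its 225 and 666 reads gave a depth-adjusted ratio of 3.05 (95% interval 2.62 to 3.56 from counting alone). With no filter on low values SOX5 gave a log2 difference of 0.48 (SE 0.05, limma adjusted p = 0.000306), in a fit where 54.9% of 16278 genes passed. The third SOXD gene, SOX6, had 4 reads in each group.

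SOX9 did not separate the groups. Its levels were 0.628, 0.638 and 0.661 FPKM in OE-NC and 0.697, 0.531 and 0.536 FPKM in OE-SOX3, so that the highest and the lowest library were both OE-SOX3. The means were 0.642 ± 0.0166 and 0.588 ± 0.0941 FPKM (SD, n = 3 libraries each), under the filter of 1 FPKM. Its 147 and 131 reads gave a depth-adjusted ratio of 0.918, with a 95% interval of 0.72 to 1.17 from counting alone. With no filter the log2 difference came to -0.05 (SE 0.05, limma adjusted p = 0.406). No difference was detectable at this depth. SOX9 lies on chromosome 17 (72121020 to 72126420, plus strand). SOX10, the other SOXE gene in the table, had 1 read in all.

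The remaining SOX genes were low in all libraries. SOX18, an endothelial SOXF factor, was at 0.79, 1.37 and 0.655 FPKM in OE-NC and at 0.694, 0.421 and 0.506 FPKM in OE-SOX3. Its groups overlapped, and its 103 and 57 reads gave a depth-adjusted ratio of 0.57 (95% interval 0.405 to 0.795 from counting alone). With no filter it did not pass (log2 fold change -0.32, limma adjusted p = 0.103), whereas it met the filter and passed without OE-NC replicate 1 (-0.37, limma adjusted p = 0.0283) and without OE-NC replicate 3 (-0.42, limma adjusted p = 0.0313). Both times it met the filter through OE-NC alone, so its direction was fixed. OE-NC library 2 held 52 of its 103 control reads. SOX7 had 9 and 3 reads, SOX30 had 10 and 9, SOX15 had 4 and 0, SOX17 had 3 and 1, and SOX21 had 0 and 1 in OE-NC and OE-SOX3. No fold is given for these. SOX7 also shares 39.4% of its exon bases with another gene. SOX1, SOX8 and SOX14 were not analysed here.

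**Figure D2:**
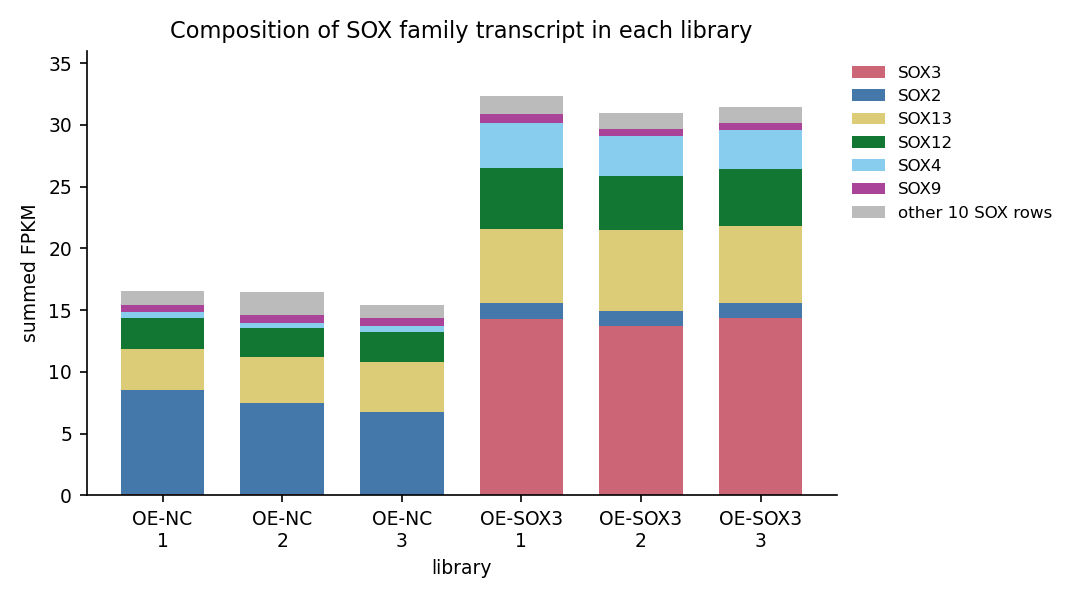
Stacked bars of the FPKM of each SOX gene in each of the 6 libraries, with the 10 SOX genes outside the main list summed in grey. SOX2 (blue) is the widest band in the 3 OE-NC bars and SOX3 (red) in the 3 OE-SOX3 bars, and the whole bar rises from 16.2 to 31.6 FPKM on average.

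Ranked by level, the controls ran SOX2, SOX13, SOX12, SOX18, SOX9, SOX4, SOX5 and SOX3. Neighbours in that order did not overlap in their 3 libraries, except SOX18 with SOX9. Below SOX5, SOX3 overlapped SOX15, the next gene down. In OE-SOX3 the order was SOX3, SOX13, SOX12, SOX4, SOX2, SOX5, SOX9 and SOX18. There SOX5 overlapped SOX9 and SOX9 overlapped SOX18, while the 5 genes above them were separate. SOX2 thus went from the first place to the fifth and SOX4 from the sixth to the fourth, and SOX13 and SOX12 kept the second and the third. The summed FPKM of the family went from 16.2 ± 0.651 to 31.6 ± 0.711 (SD, n = 3 libraries each). Without SOX3 the sum of the other 15 genes was 16.5, 16.3 and 15.4 FPKM in OE-NC and 18, 17.3 and 17 FPKM in OE-SOX3, 1.09 times the control mean (exact permutation p = 0.1, the smallest possible), the fall of SOX2 being offset in FPKM by the rises of SOX4, SOX12 and SOX13.

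**Figure D3:**
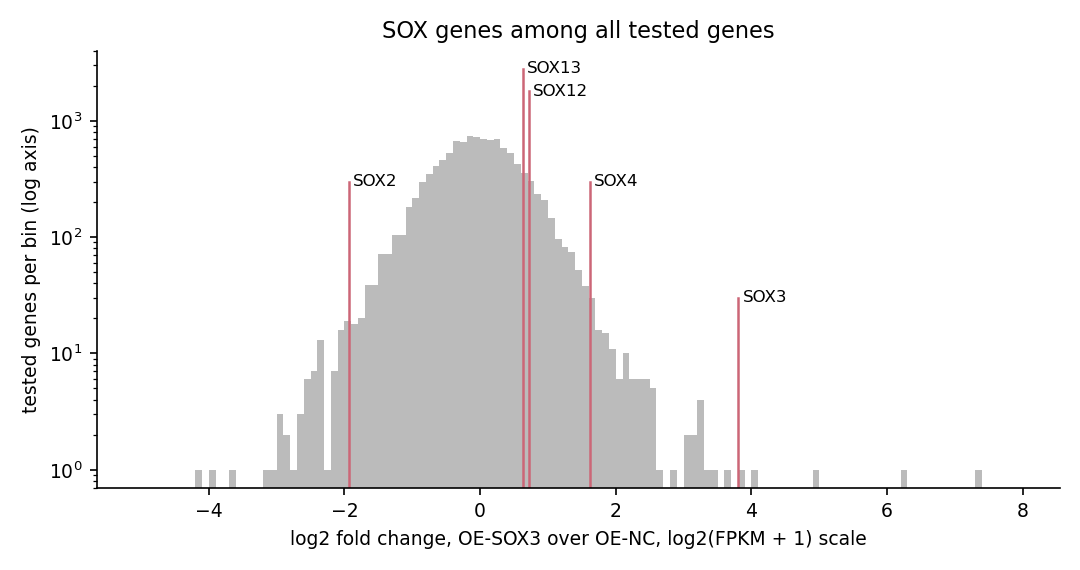
Histogram of the log2 fold change (log2(FPKM + 1) scale) of the 11131 tested genes, with genes per bin on a log axis and red lines at the 5 tested SOX genes (line height has no meaning). SOX3 (3.81) lies in the far right tail, SOX2 (-1.93) and SOX4 (1.62) in the shoulders, and SOX12 (0.72) and SOX13 (0.63) where many genes lie.

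All 5 tested members kept their direction and stayed past the threshold under the 15 alternative settings. SOX3 and SOX4 met the filter through OE-SOX3 alone, so their direction was fixed wherever the filter was applied. The settings share the same libraries, and 6557 to 9182 genes passed in each, so staying past the threshold was common. SOX3 ranged from 3.76 to 7.45, SOX2 from -2.60 to -1.77, SOX4 from 1.39 to 3.00, SOX12 from 0.64 to 0.98 and SOX13 from 0.57 to 0.84 on the log2 scale. The values of 7.45 and 3.00 came from limma-voom on recovered reads.

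**Figure D4:**
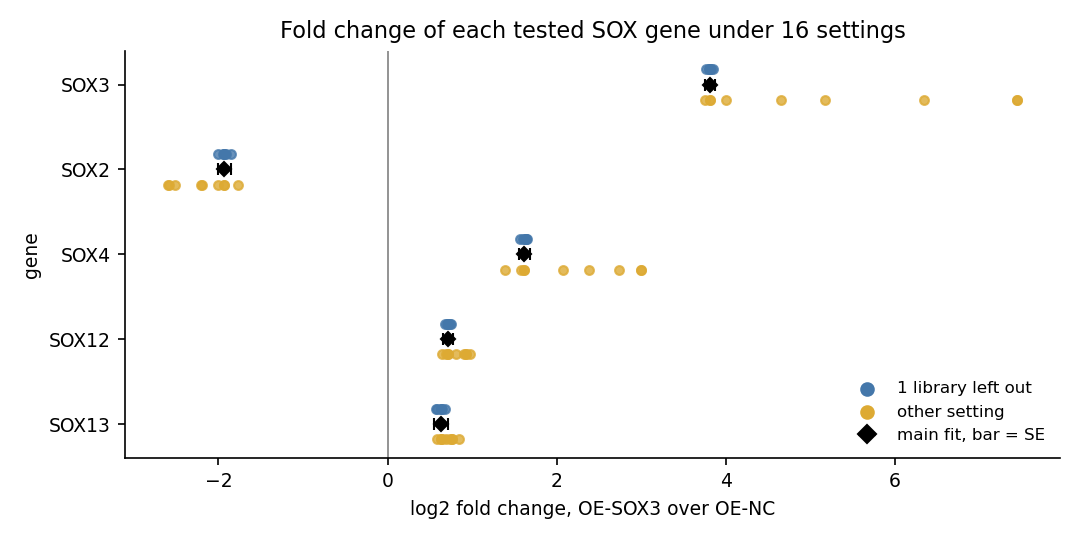
Log2 fold change of the 5 tested SOX genes as reported (black, bar = SE), with 1 library left out (blue) and under other settings (yellow). The blue points stay near the main value for every gene, and the yellow points of SOX3 spread up to 7.45.

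Genes whose profile over the 6 libraries was nearest to each member were found by the root mean square distance between mean-centred log2(FPKM + 1) values. For SOX3 only 2 tested genes lay within a distance of 0.25, TCIM (0.0845 to 12.3 FPKM) and the pyruvate dehydrogenase kinase gene PDK4 (1.38 to 37.8 FPKM), followed by NR1D1. Nearest to SOX2 were RFC2, a subunit of the clamp loader of DNA replication (58.7 to 14.5 FPKM), the helicase gene RECQL4 (21.5 to 5.03 FPKM) and MRTO4, a factor of ribosome assembly (32.7 to 7.46 FPKM), among 175 genes within that distance. SOX4 had 328 genes within 0.25, with TTC14, the guanine nucleotide exchange factor gene AKAP13 and the sorting receptor gene SORT1 (13.5 to 41.9 FPKM) nearest. SOX12 lay near SLC44A3 and OSBPL2, and SOX13 to USP53, the kinase gene SRC and the beta-catenin cofactor gene BCL9 (1.37 to 2.66 FPKM), with 2839 and 3424 genes within 0.25. SOX9 lay nearest to SLC25A51, CPLANE2 and TAPT1, none of which passed the test. The 6 libraries form 2 groups, so genes with a like group difference come out near each other.

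The other proteins with an HMG box changed in both directions. Of 15 tested, 6 rose, 7 fell and 2 missed the threshold (median log2 fold change 0.00). Over all tested genes 32.9% rose and 36.1% fell, and the counts of this and the following lists are to be read beside those shares. HBP1, a repressor that slows the cell cycle, rose from 8.82 ± 1.35 to 28.9 ± 1.58 FPKM (SD, n = 3 libraries each). UBTF, the activator of ribosomal RNA genes, fell from 20.5 ± 1.79 to 8.87 ± 0.294 FPKM, and SSRP1, a subunit of the histone chaperone FACT, from 88.5 ± 9.2 to 41.5 ± 1.3 FPKM (SD, n = 3 libraries each). Among the TCF/LEF factors, which read Wnt signals through beta-catenin, TCF7L2 was the one above the filter and rose (log2 fold change 0.35, limma adjusted p = 0.016).

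Partner factors that bind DNA beside SOX proteins were few. Of 7 tested, 2 rose, 2 fell and 3 missed the threshold (median 0.16, or 0.04 over the 6 at 1 FPKM or more in both groups). PROX1, a homeobox factor of lymphatic and neural cells, rose from 0.317 ± 0.108 to 2.22 ± 0.0366 FPKM, and the chromatin remodeller gene CHD7, which binds SOX2, rose from 1.48 to 2.18 FPKM, a call lost once the gene length trend was removed (adjusted p = 0.0502). KLF4 fell from 14.9 ± 1.25 to 5.87 ± 0.149 FPKM and PAX8 from 8.27 ± 0.086 to 3.69 ± 0.218 FPKM (SD, n = 3 libraries each). Those most closely tied to SOX2 in stem cells, POU5F1 and NANOG, stood at 0.0124 and 0.00316 FPKM in OE-NC and at 0 in OE-SOX3. Among cofactors and regulators of SOX proteins, 4 of 15 rose, 5 fell and 6 missed the threshold (median -0.19). CTNNB1, which encodes beta-catenin, rose from 108 ± 1.2 to 165 ± 0.648 FPKM and the Groucho corepressor gene TLE3 from 2.81 ± 0.171 to 5.77 ± 0.26 FPKM, while KPNB1, the nuclear import receptor importin beta, fell from 104 ± 3.05 to 55.7 ± 1.24 FPKM (SD, n = 3 libraries each).

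Genes known downstream of SOX factors moved by group as follows. Of 7 tested neural progenitor genes linked to SOXB1, 6 rose, 0 fell and 1 missed the threshold (median 0.51, against -0.03 over all tested genes). DLL1 met the filter through OE-SOX3 alone, and the median of the other 6 was 0.41. They included the Notch ligand gene DLL1 (0.435 ± 0.0404 to 2.88 ± 0.194 FPKM), ZIC2 (1.16 ± 0.17 to 2.65 ± 0.158 FPKM), NCAM1 (8.07 ± 0.373 to 13.8 ± 0.184 FPKM) and VIM (2973 ± 268 to 4219 ± 113 FPKM; SD, n = 3 libraries each), whose call was lost under quantile normalization (adjusted p = 0.0539). The other 8 of the 15 in the table were under 1 FPKM, among them NES at 0.0772 and 0.0784 FPKM. Of the pluripotency genes linked to SOX2, 1 of 10 was tested, DNMT3B, which stood at 1.18 and 1.36 FPKM and did not pass. Among 6 SOXC targets 3 rose, 1 fell and 2 missed the threshold (median 0.07). STMN2, a neuronal regulator of microtubules, rose from 1.23 ± 0.14 to 17.4 ± 0.281 FPKM and MAP2 from 2.98 ± 1.08 to 6.46 ± 0.803 FPKM, while EZH2, the histone methyltransferase that SOX4 is known to induce in epithelial cells, fell from 11.4 ± 0.143 to 5.37 ± 0.253 FPKM (SD, n = 3 libraries each).

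Genes known as SOX9 targets in cartilage and testis were mixed. Among 5 tested cartilage genes 3 were higher and 2 lower (median 0.58). COL9A3 and MATN3 met the filter through OE-SOX3 alone, and the median of the other 3 was -0.23, of opposite sign. COL11A1 rose from 5.98 ± 0.0534 to 19.6 ± 0.322 FPKM and MATN3 from 0.926 ± 0.11 to 4.35 ± 0.144 FPKM, whereas COL9A2 fell from 9.18 ± 1.69 to 3.46 ± 0.273 FPKM (SD, n = 3 libraries each). The defining cartilage genes COL2A1 and ACAN were at 0 in OE-NC and at 0.00312 and 0.00979 FPKM in OE-SOX3. Among 5 tested Sertoli genes 2 were higher, 1 was lower and 2 missed the threshold (median 0.18). All 3 called genes, GATA4, INHA and CLDN11, were under 1 FPKM in one group, so the filter fixed their direction. AMH, the direct SOX9 target, stood at 4.65 ± 0.842 and 5.38 ± 0.317 FPKM (SD, n = 3 libraries each; limma adjusted p = 0.178), and CLDN11 fell from 2.11 to 0.516 FPKM. Of 10 factors that set the fate of gonadal supporting cells, 7 rose, 1 fell and 2 missed the threshold (median 0.41). In all, 69.1% of tested genes passed, 32.9% higher and 36.1% lower. FST, GATA4 and LHX9 met the filter through OE-SOX3 alone and CBX2, the gene that fell, through OE-NC alone, and the median of the other 6 was 0.25. SIX4 rose from 1.1 ± 0.276 to 6.51 ± 0.31 FPKM, LHX9 from 0.335 ± 0.0583 to 1.04 ± 0.025 FPKM, GATA4 from 0.349 ± 0.0731 to 1.09 ± 0.116 FPKM and FST, which encodes follistatin, from 0.356 ± 0.134 to 1.19 ± 0.209 FPKM (SD, n = 3 libraries each). The female fate factor FOXL2, which represses Sox9 in the mouse ovary, rose from 3.23 ± 0.515 to 4.85 ± 0.215 FPKM (SD, n = 3 libraries each; log2 fold change 0.48, limma adjusted p = 0.00328; named outside the rule, after its value was seen).

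**Figure D5:**
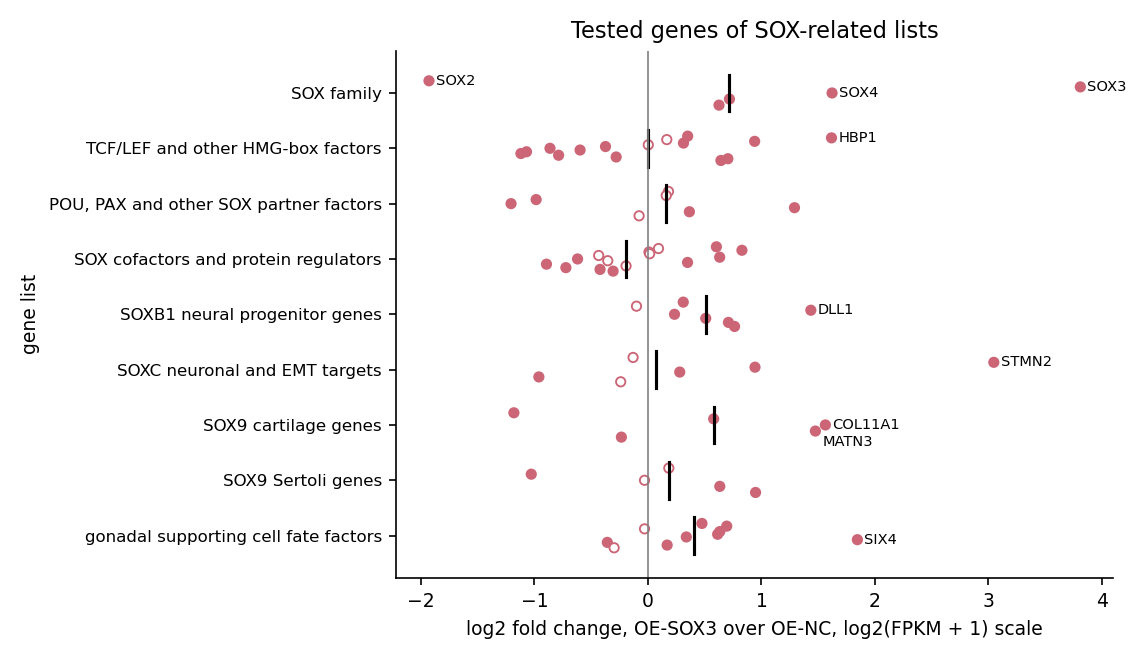
Log2 fold change (log2(FPKM + 1) scale) of every tested gene in 9 SOX-related lists, filled where the limma adjusted p was under 0.05 and open where it was not, with a black bar at each list's median. The SOX family runs from SOX2 at -1.93 to SOX3 at 3.81, and its upper end is the overexpressed gene itself. The next highest SOX gene is SOX4 at 1.62, and STMN2 (3.05) and SIX4 (1.84) stand out among the other genes.

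The labelled cell type was checked against its markers. Of the granulosa genes STAR, NR5A1, FOXL2 and CYP11A1 were above 1 FPKM in both groups (NR5A1 at 15.7 and 15.4 FPKM), whereas INHBA, WT1, GATA4, INHA, CYP19A1, AMHR2 and HSD17B1 were under 1 FPKM in OE-NC. INHBA, which encodes a subunit of activin, had the largest change of the tested granulosa genes (0.488 ± 0.0352 to 6 ± 0.333 FPKM, SD, n = 3 libraries each; log2 fold change 2.23, limma adjusted p = 9.1e-07). Of 7 tested 5 rose, 0 fell and 2 missed the threshold (median 0.63), where 69.1% of all tested genes passed (32.9% higher and 36.1% lower). INHBA, GATA4 and INHA met the filter through OE-SOX3 alone, so their direction was fixed, and the median of the other 4 was 0.26. The summed level of the list was 54.9 to 59.3 FPKM in OE-NC and 148 to 154 FPKM in OE-SOX3, mostly STAR. Summed pluripotent markers stayed at or under 0.304 FPKM in every library, and chondrocyte markers at or under 0.267 FPKM. Neural markers came to 1.65 to 1.96 FPKM in OE-NC and 18.1 to 18.3 FPKM in OE-SOX3, nearly all of the latter STMN2, with GFAP near 0. Sertoli markers lay at 6.33 to 7.5 and 5.63 to 6.39 FPKM, with 1 of 2 tested lower, endothelial markers at 7.47 to 8.74 and 7.99 to 8.33 FPKM, with 1 of 3 higher (TEK, whose call was lost under quantile normalization, adjusted p = 0.0788) and 1 lower, and epithelial markers at 27.1 to 35.5 and 38.5 to 41.5 FPKM, with 2 of 2 higher and mostly KRT14, whose call was lost in 4 of the fits that left out 1 library (adjusted p = 0.0614 to 0.0718). Leukocyte markers lay at 4.04 to 5.37 FPKM in OE-NC and at 2 to 2.17 FPKM in OE-SOX3. Of these CSF1R was the 1 tested gene and fell, with the pan-leukocyte gene PTPRC at 0.0734 and 0.0556 FPKM. Below the filter CD14 went the other way, from 0.124 to 0.414 FPKM (11 and 36 reads), with no overlap. LYZ (1 and 9 reads) and ITGAM (5 and 11 reads) were also higher in OE-SOX3, with overlapping groups. The part of these differences in the SOX results was not tested. SPP1 itself stood at 2.78 and 605 FPKM in the 2 groups (log2 fold change 7.33).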

How the data were processed

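Total RNA from KGN cells gave 6 libraries, made by an Illumina protocol per the labels. Read layout, strand and annotation are not named in these sources, and the submitters' processing notes name HISAT2, HTSeq, RSEM and hg38 without versions or roles. The authors deposited 1 value per gene and library, with no unit in the header. The deposited values were taken as FPKM because whole reads, whole gene lengths and 1 total per library fitted every value of 16278 genes (100%, tolerance 0.02 reads), and 348 were at 0 throughout. For SOX3, SOX2, SOX4 and SOX12 the fitted length equalled the RefSeq length. The shortest fitting length was used. On simulated reads for 2938 genes, 98.4% were exact. FPKM divides by a fixed length, so a change of transcript form or a length-dependent loss of RNA enters as expression.

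OE-SOX3 was compared with OE-NC by limma-trend (limma 3.58.1, R 4.3.3) on log2(FPKM + 1), which understates changes of low genes. It covered the 11131 genes that reached a mean of 1 FPKM in either group, with Benjamini-Hochberg adjustment of p-values. In simulated data for this comparison (10609 genes tested) 84.8% of genes changed 1.5-fold and 100% of those changed 2-fold were called, with 4.69% false calls. That simulation changed 193 genes, with the same spread setting for all genes and no gene length trend. In the real data 69.1% of genes were called and a length trend was present, so these rates need not carry over. Sums were compared by exact permutation (SciPy 1.17.1). The members and 18 gene lists were chosen with earlier results of these data known. Named genes are all SOX genes, up to 4 called genes per list by adjusted p, the 3 nearest profiles per member, and SPP1. Others are named as defining markers or members of a list, after their values were seen.

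Same-numbered libraries of both groups deviated together (correlations over genes of 0.486, 0.243 and 0.25), so the replicate numbers may pair the libraries, from this check alone. Replicate 1 of both groups also had a gene length trend of the same sign (Spearman correlation -0.508 and -0.215), whose part in this was not tested. The main fit and the permutation tests treated the libraries as unpaired, and a pairing entered through the replicate block alone. A chi-square over its degrees of freedom was 1.76 for OE-NC 2 and 3, 2.09 for OE-SOX3 2 and 3, and 4.64 to 61.5 for other pairs within a group. All exceed the 1 of counting noise. Such an excess can also be technical, so it does not show that the libraries were grown separately. Each library was kept as a sample. Alternatives were other pseudocounts, no filter, other scalings, limma-voom on recovered reads, the replicate block and each library left out. Promoters and gene starts come from RefSeq (GRCh38.p14) and transcripts from GENCODE 29. The SOX9 promoter was not used here. Some genes that the naming rule picks are not reported here.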

Additional observations from a re-analysis of the deposited data

How the results depend on the processing

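The 5 tested SOX genes and the total of 7686 changed genes kept their direction and side of the threshold, or stayed within 1.5 times, under all 15 alternatives. For SOX3 and SOX4 the filter fixed that direction wherever it was applied. The total ranged from 6557 (without OE-SOX3 replicate 2) to 9182 (limma-voom without a filter, 16278 genes tested). Among the fits with a filter the highest was 9076 (without OE-NC replicate 1). With the replicate number as a block, 8031 genes passed, and the block changed no call of a SOX gene or of another named gene. Removing the gene length trend and limma-voom without a filter were chosen after seeing the data. The family count of called SOX genes, 5 in the report, was 6 without OE-NC replicate 1 and without OE-NC replicate 3. There SOX18 met the filter through OE-NC alone, which fixed its direction. The count was also 6 with no filter, where SOX5 was added. With no filter, where more genes are tested, called counts moved from 5 to 8 (granulosa markers), 0 to 3 (SOX2 pluripotency genes, 4 by limma-voom), 3 to 5 (SOX9 Sertoli genes) and 1 to 2 (leukocyte markers, and neuron markers by limma-trend), and by limma-voom from 5 to 8 (SOX9 cartilage genes). Endothelial markers went from 2 to 1 under quantile normalization and Sertoli markers from 1 to 2 with the length trend removed. With 1 library left out, counts moved from 0 to 1 (SOX2 pluripotency genes without OE-NC replicate 2), from 1 to 2 (Sertoli markers without OE-NC replicate 3) and from 2 to 1 (epithelial markers without OE-NC replicate 2 or 3, or OE-SOX3 replicate 1 or 2). The 3 genes nearest to SOX9 were not past the threshold and changed sign near 0. CPLANE2 gave 0.10 with equal sums, 0.20 with the length trend removed (adjusted p = 0.0369) and, with 1 library left out, -0.06 to 0.01, the highest without OE-SOX3 replicate 3. SLC25A51 gave 0.10 with equal sums, 0.05 under quantile normalization and 0.23 with the length trend removed, and TAPT1 gave 0.06 with equal sums. The cause was not tested. Depth limits SOX genes under about 10 reads per group, for which no fold was given.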

Other observations

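Several regulators under the filter of 1 FPKM also separated the groups. They were picked after their values were seen, and their p-values come from the limma fit without a filter, in which 54.9% of genes passed. Their log2 values are differences of log2(FPKM + 1), which understate changes of genes this low. Among the TCF/LEF factors, whose HMG box is related to that of SOX proteins, TCF7L1 stood at 0.229, 0.148 and 0.124 FPKM in OE-NC. In OE-SOX3 it stood at 0.692, 0.874 and 0.724 FPKM (log2 difference 0.59, limma adjusted p = 0.000166). TCF7 went the other way, from 0.228, 0.251 and 0.215 to 0.0686, 0.0657 and 0.0853 FPKM (-0.20, adjusted p = 0.000187). LEF1 was also lower, at 0.844, 0.879 and 0.774 against 0.49, 0.591 and 0.445 FPKM (-0.28, adjusted p = 0.00247). With TCF7L2 higher, these 4 factors split by gene, and no library of 1 group overlapped the other for the 3 given here.

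Gonadal genes at low level separated the groups in both directions. WT1, which acts early in gonad formation, had 0.0147, 0.0413 and 0 FPKM in OE-NC and 0.637, 0.775 and 0.606 FPKM in OE-SOX3 (log2 fold change 0.71, limma adjusted p = 3.82e-05). GATA6 went from 0.166 ± 0.0147 to 0.555 ± 0.0651 FPKM and the aromatase gene CYP19A1 from 0.273 ± 0.0632 to 0.925 ± 0.109 FPKM (SD, n = 3 libraries each). AMHR2, the receptor gene for AMH, went the other way, at 0.162, 0.355 and 0.218 FPKM in OE-NC and at 0 in all 3 OE-SOX3 libraries (14 against 0 reads). WNT4 had 6 reads in OE-NC and 1 in OE-SOX3, and NR0B1 had 1 and 9. For WNT4, OE-NC library 1 and OE-SOX3 library 2 held 1 read each. Its depth-adjusted ratio had an interval of 0.00373 to 1.41 from counting alone, so WNT4 is not taken as separating the groups. For NR0B1 that interval was 1.28 to 406. No fold is given for either gene. Of genes tied to SOX2 in stem cells, SALL4 was higher (0.0502 ± 0.00869 to 0.213 ± 0.0319 FPKM). TDGF1, which encodes the NODAL coreceptor CRIPTO, was lower (0.548 ± 0.0178 to 0.133 ± 0.0486 FPKM, SD, n = 3 libraries each). At few reads DPPA4 (24 and 10) and ZFP42 (13 and 4) were also lower and LEFTY1 (3 and 8) was higher, without overlap. These genes, named after their values were seen, did not all follow SOX2.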
